A study of Mus musculus with 14 samples.

Results

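The genes described here are 47 mouse genes of DNA replication and mitosis, followed in lines of a pancreatic beta-cell culture in which Sirt1 was overexpressed or knocked down. A probe was taken when its only gene symbol in the platform annotation, updated through its Entrez identifier, was 1 of these 47 names. This gave 46 probes of 45 genes, out of 23232 probes on the array, of which 23230 were tested, the 46 included. Plk1 had 2 probes, while no probe carried the single name E2f2 or Ccnb1, and the RNA of these genes was not analysed here.

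All cells derived from MIN6, an insulin-secreting mouse beta-cell line taken at passage 24, and all were kept in 5 mM glucose for 4 days before RNA was prepared. Sir2OE1 (3 arrays) and Sir2OE2 (4 arrays) carried mouse Sirt1, an NAD-dependent deacetylase, and a neomycin-resistance gene from the pBabe-Sirt1 retrovirus and were selected in 280 micrograms per ml of G418. Their control was pooled RNA of MIN6-Neo1 and MIN6-Neo2, infected with pBabe-neo. Sir2KD1 (3 arrays) and Sir2KD2 (4 arrays) received mU6pro vectors for different small interfering RNAs against Sirt1 together with a neomycin-resistance plasmid and were selected in 400 micrograms per ml of G418. Their control was the MIN6-mU6pro line. Every array hybridised a modified line and its control in opposite channels, and the channels were exchanged between slides of a line. Each name stands for a single established line, and the labels do not say whether a line was a clone. Nothing in the labels says that the slides of a line came from separate cultures, so p-values measure the spread between these slides, which may be technical. A ratio tested against 0 also carries no spread of the control itself. Such arrays measure RNA of whole cultures, in which fewer cells in a stage of the cycle and less RNA per cell cannot be told apart.

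Dividing cells license replication origins in G1, when ORC, CDC6 and CDT1 load the MCM helicase, while geminin holds CDT1 in check until the next cycle. E2F factors turn on replication genes towards S phase, and MYBL2 and FOXM1, acting with the MuvB complex, turn on mitotic genes in G2. Mature beta cells rarely divide, whereas MIN6 cells proliferate in culture. With ratios alone, the presence of these transcripts or of beta-cell markers in the cultures could not be checked.

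Values are turned log2 ratios of the line against its control, plus for one side and minus for the other. Arrays that held the line in channel 1 had their sign changed, which assumes that the deposited ratios have channel 2 on top. The channel on top is not settled, so plus may stand for more or for less RNA in the modified line, and setting the overexpressing lines against the knockdown lines further assumes the same channel on top in both. The Sirt1 probe passed the test in none of the lines (limma adjusted p between 0.131 and 0.933) and so neither settled this nor checked the labels. The values for Sirt1 were -0.20, -0.36, -0.28 and -0.49 in Sir2OE2 and -0.08, 0.21 and 0.13 in Sir2OE1, with 0.22, 0.10, 0.10 and 0.07 in Sir2KD2 and -0.12, -0.21 and 0.03 in Sir2KD1. With plus read as more RNA, all 4 Sir2OE2 arrays and all 4 Sir2KD2 arrays ran against what their labels say of Sirt1, while Sir2OE1 and Sir2KD1 were mixed. A line value is the ratio fitted for a line over its arrays with limma, and a probe is called when its p, adjusted by the Benjamini-Hochberg method over all 23230 probes, is under 0.05. The SE of a line value rests on 1 spread per probe, shared by the arrays of all lines and moderated over probes. An SE given with n is thus not the scatter of those n arrays alone.

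Few replication and mitosis genes passed the test, and 5 of the 6 that did in a single line did so in Sir2OE2. There, Top2a, Cdk1 and Mcm7 were called on the plus side at 1.46-fold to 1.97-fold, and Mcm2 and Cdc20 on the minus side at 1.60-fold and 1.61-fold. These 5 of 46 member probes (10.9%) compare with 2.81% of all probes called in Sir2OE2, with 1.43% plus and 1.38% minus. Unadjusted p was under 0.05 there for 18 members (39.1%), against 13.2% of all probes. In Sir2KD1 only Gmnn was called, at 1.57-fold on the plus side, so 1 of 46 probes against 3.59% of all probes (1.6% on the plus side). In that line 2 members (4.35%) had unadjusted p under 0.05, against 16.8% of all probes. No member was called in Sir2OE1 or in Sir2KD2, where 1.06% and 1.34% of all probes were. Unadjusted, limma gave p under 0.05 for 8 member probes in Sir2OE1 (17.4%, against 9.61% of all probes) and for 5 in Sir2KD2 (10.9%, against 13.4%).

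**Figure D1:**
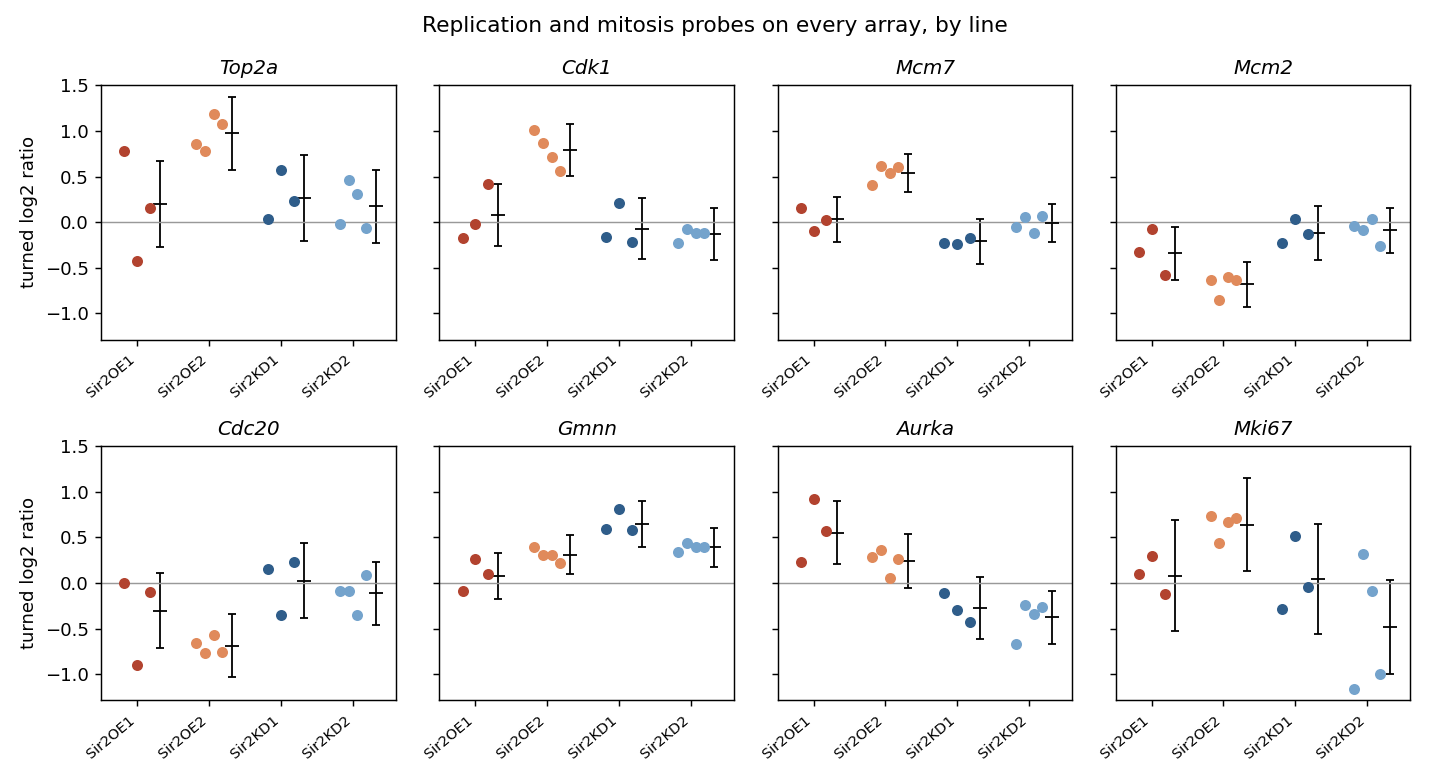
Turned log2 ratio (vertical axis) on every array for 8 genes, grouped by line (horizontal axis). Coloured points are single arrays, and the black bar beside them is the fitted line value with its 95% interval. The 4 Sir2OE2 arrays lie between 0.78 and 1.18 for Top2a and between -0.85 and -0.60 for Mcm2, and the 3 Sir2KD1 arrays lie between 0.57 and 0.81 for Gmnn.

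Top2a encodes topoisomerase II alpha, which untangles sister chromatids before they part. Its turned log2 ratios were 0.86, 0.78, 1.18 and 1.08 on the Sir2OE2 arrays and 0.77, -0.42 and 0.16 on the Sir2OE1 arrays. On the knockdown arrays it stood at 0.04, 0.58 and 0.23 in Sir2KD1 and at -0.02, 0.46, 0.31 and -0.06 in Sir2KD2. All Sir2OE2 arrays were thus above every other array, the lowest narrowly (0.782 against 0.775 on Sir2OE1 slide 1). The Sir2OE1 arrays lay on both sides of 0. The line value in Sir2OE2 was 0.97 ± 0.18 (SE, n = 4; 95% interval 0.57 to 1.38; limma adjusted p = 0.0154), that is 1.97-fold.

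Cdk1, the kinase that drives entry into mitosis, had turned log2 ratios of 1.01, 0.87, 0.72 and 0.56 in Sir2OE2 and of -0.18, -0.02 and 0.42 in Sir2OE1. In the knockdown lines it measured -0.16, 0.21 and -0.22 in Sir2KD1 and -0.22, -0.07, -0.12 and -0.12 in Sir2KD2. The Sir2OE2 arrays did not overlap any other line, and 6 of the 7 knockdown arrays were on the minus side. Its line value in Sir2OE2 was 0.79 ± 0.13 (SE, n = 4; limma adjusted p = 0.00716), or 1.73-fold.

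Mcm7 is a subunit of the MCM helicase. It gave turned log2 ratios of 0.41, 0.62, 0.54 and 0.60 in Sir2OE2 and of 0.15, -0.10 and 0.03 in Sir2OE1. In Sir2KD1 the values were -0.23, -0.24 and -0.17, and in Sir2KD2 they were -0.06, 0.06, -0.12 and 0.07. Sir2OE2 again stood clear of the other lines, with a line value of 0.54 ± 0.09 (SE, n = 4; limma adjusted p = 0.0101). Genes shown because Sir2OE2 called them tend to have its arrays clear of the other lines, so this separation is no separate result.

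Mcm2 belongs to the same helicase but lay on the opposite side. Its turned log2 ratios were -0.63, -0.85, -0.60 and -0.63 in Sir2OE2 and -0.33, -0.07 and -0.58 in Sir2OE1. In Sir2KD1 it had -0.23, 0.03 and -0.13, and in Sir2KD2 -0.04, -0.09, 0.03 and -0.26. All 7 overexpression arrays were on the minus side, the Sir2OE2 arrays being lowest. The line value was -0.68 ± 0.11 in Sir2OE2 (SE, n = 4; limma adjusted p = 0.00738) and -0.34 ± 0.13 in Sir2OE1 (SE, n = 3; adjusted p = 0.402).

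Cdc20 activates the anaphase-promoting complex, the ubiquitin ligase that lets sister chromatids separate. On the Sir2OE2 arrays it had turned log2 ratios of -0.66, -0.77, -0.57 and -0.75, and on the Sir2OE1 arrays 0.00, -0.90 and -0.10. In Sir2KD1 the probe gave 0.15, -0.36 and 0.23, and in Sir2KD2 -0.09, -0.09, -0.36 and 0.09. A single Sir2OE1 array went below the Sir2OE2 arrays, so these lines overlapped. The Sir2OE2 line value was -0.69 ± 0.16 (SE, n = 4; limma adjusted p = 0.0436).

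These calls rested on few arrays. Leaving out Sir2OE2 slide 1 left 1 member called in that line (Mcm7), leaving out slide 2 left 0, and leaving out slide 3 or slide 4 left 2 (Mcm2 and Cdk1). The share of all probes called in Sir2OE2 fell as well, from 2.81% to 1.36%, 1.46%, 1.39% and 1.67% without slides 1, 2, 3 and 4. The 2 members left without slide 3 or slide 4 were 4.35% of the member probes. The line values themselves moved little, between 0.93 and 1.02 for Top2a, between 0.69 and 0.89 for Cdk1, between 0.50 and 0.59 for Mcm7 and between -0.73 and -0.59 for Mcm2. Cdc20, the call nearest the threshold, was also lost without Sir2OE1 slide 3, Sir2KD1 slide 1 or 3, or any 1 Sir2KD2 slide, with limma adjusted p between 0.0503 and 0.204 over all the arrays whose omission ended the call.

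The difference between the overexpressing lines was tested directly, as Sir2OE1 minus Sir2OE2, and no member was called in it (limma), against 0.323% of all probes. Unadjusted p was under 0.05 for 4 members (8.7%), against 7.48% of all probes. For Top2a the difference was -0.78 (95% interval -1.40 to -0.15; adjusted p = 0.486), for Cdk1 -0.71 (-1.15 to -0.27; adjusted p = 0.278) and for Mcm7 -0.51 (-0.83 to -0.19; adjusted p = 0.28). For Mcm2 it was 0.34 (-0.04 to 0.72) and for Cdc20 0.38 (-0.15 to 0.92). The Sir2OE2 calls are therefore not shown to be particular to that line. With the line rather than the array as the replicate (limma on 4 line values), 0 of 46 members and 0% of all probes were called for the overexpressing lines, and 10 members (21.7%) against 6.99% of all probes had unadjusted p under 0.05.

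Where matches to cell-cycle promoter motifs lie is shown for the 5 genes called in Sir2OE2, because their signs split within the replication and the mitotic machinery. The sequences are the 250 bases before the annotated start, from RefSeq with build GRCm38.p6, all on the minus strand and printed 5′ to 3′. Capitals mark matches, on either strand, to E2F (TTTNNCGC), CHR (TTTGAA or TTTAAA) and CCAAT. Top2a is chr11:99024190-99024439, Cdk1 chr10:69352913-69353162, Mcm7 chr5:138171884-138172133, Mcm2 chr6:88898781-88899030 and Cdc20 chr4:118437344-118437593.
Top2a: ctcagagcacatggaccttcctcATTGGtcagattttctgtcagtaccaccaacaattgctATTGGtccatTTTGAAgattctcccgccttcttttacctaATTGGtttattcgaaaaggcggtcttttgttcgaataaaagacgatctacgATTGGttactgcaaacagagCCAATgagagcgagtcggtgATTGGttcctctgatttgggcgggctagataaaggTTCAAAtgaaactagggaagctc
Cdk1: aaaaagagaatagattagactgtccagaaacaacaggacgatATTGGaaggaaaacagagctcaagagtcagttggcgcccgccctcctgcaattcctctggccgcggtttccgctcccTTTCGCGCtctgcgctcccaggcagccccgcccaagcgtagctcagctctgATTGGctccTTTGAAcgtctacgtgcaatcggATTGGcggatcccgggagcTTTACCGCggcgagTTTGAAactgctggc
Mcm7: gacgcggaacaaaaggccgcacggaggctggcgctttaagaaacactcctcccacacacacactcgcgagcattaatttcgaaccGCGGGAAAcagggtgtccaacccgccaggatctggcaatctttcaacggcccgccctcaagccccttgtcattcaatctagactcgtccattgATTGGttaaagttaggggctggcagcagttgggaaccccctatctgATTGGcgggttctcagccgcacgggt
Mcm2: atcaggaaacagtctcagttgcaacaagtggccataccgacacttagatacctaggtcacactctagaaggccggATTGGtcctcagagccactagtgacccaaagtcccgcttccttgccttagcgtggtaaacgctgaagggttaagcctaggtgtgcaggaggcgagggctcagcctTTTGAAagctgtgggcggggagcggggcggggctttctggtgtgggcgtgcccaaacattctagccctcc
Cdc20: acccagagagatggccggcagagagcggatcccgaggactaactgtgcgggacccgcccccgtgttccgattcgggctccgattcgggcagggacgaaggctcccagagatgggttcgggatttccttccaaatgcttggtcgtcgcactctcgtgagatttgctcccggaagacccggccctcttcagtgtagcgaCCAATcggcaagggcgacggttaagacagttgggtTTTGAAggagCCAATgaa
Cdk1 held 2 E2F matches and 2 CHR matches in these bases, and Top2a had 2 CHR matches, 6 CCAAT matches and no E2F match. Mcm7 had 1 E2F match and no CHR match in the bases printed. Another RefSeq start of Mcm7 has a window, chr5:138171217-138171516, with a CCAAT match and no E2F or CHR match. Both genes on the minus side, Mcm2 and Cdc20, had 1 CHR match and no E2F match in the 250 bases printed. A match is a description of the letters and not a binding site.

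Over windows of 300 bases (250 before the start and 50 after), 39 of the 47 genes, E2f2 and Ccnb1 included, had RefSeq entries, in 41 windows. The E2F letters occurred in 31.7% of them, against 5.17% of all 32851 promoter windows. Among replication genes (16 windows) the E2F share was 56.2% and the CHR share 25%. Among mitotic and cyclin genes (21 windows) the E2F share was 14.3% and the CHR share 76.2%, against a CHR share of 27.6% in all windows. CCAAT was present in 75% of the replication windows and 85.7% of the mitotic and cyclin windows, against 37.4% of all.

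**Figure D2:**
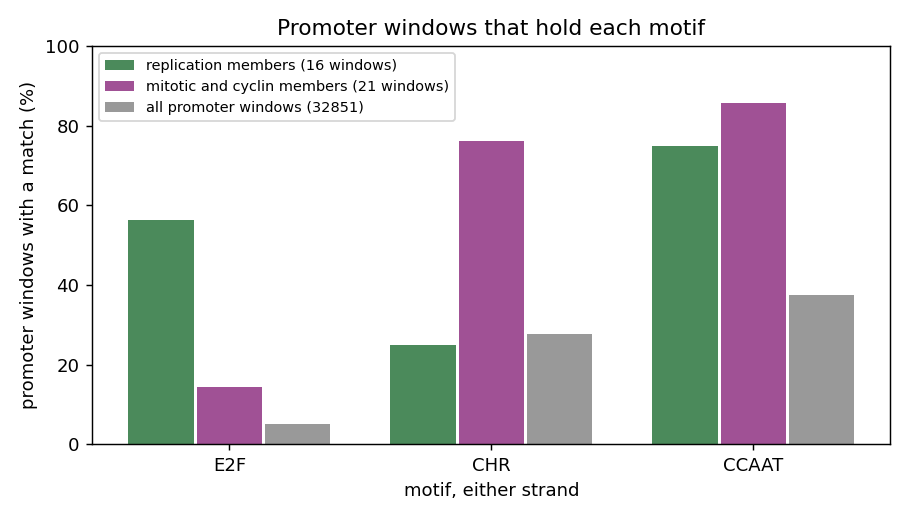
Share of promoter windows (vertical axis, percent) that hold a match to each motif (horizontal axis), for replication members, mitotic and cyclin members and all promoter windows. The E2F bar is highest for replication members (56.2%) and the CHR bar for mitotic and cyclin members (76.2%).

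Gmnn, which encodes geminin, was the member called in a knockdown line. Its turned log2 ratios were 0.59, 0.81 and 0.57 in Sir2KD1 and 0.34, 0.44, 0.39 and 0.39 in Sir2KD2. In the overexpressing lines the values were -0.09, 0.26 and 0.09 in Sir2OE1 and 0.40, 0.31, 0.31 and 0.21 in Sir2OE2. All 7 knockdown arrays were on the plus side. The Sir2KD1 arrays were above all others, which is no separate result, since Gmnn is shown for its call there. The line value was 0.65 ± 0.11 in Sir2KD1 (SE, n = 3; limma adjusted p = 0.0119) and 0.39 ± 0.10 in Sir2KD2 (SE, n = 4; adjusted p = 0.0921). Their difference, Sir2KD1 minus Sir2KD2, was 0.26 (95% interval -0.07 to 0.59; adjusted p = 0.561). The Sir2KD1 call was lost without Sir2KD1 slide 1 (0.69, adjusted p = 0.0863) or slide 2 (0.58, adjusted p = 0.0644).

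Between the knockdown lines, no member was called in the tested difference (limma), against 0.689% of all probes, and 1 (2.17%) had unadjusted p under 0.05, against 11.8% of all probes. With the line as the replicate, 0 members and 0% of all probes were called for the knockdown lines, and 2 members (4.35%) against 10.2% of all probes had unadjusted p under 0.05.

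The other licensing genes had smaller ratios. Mcm5 was at 0.34 in Sir2OE1, 0.16 in Sir2OE2, -0.19 in Sir2KD1 and -0.07 in Sir2KD2. Mcm3 measured -0.15 in Sir2OE1, -0.11 in Sir2OE2, 0.07 in Sir2KD1 and 0.15 in Sir2KD2. Mcm4 gave -0.01 in Sir2OE1, -0.22 in Sir2OE2, 0.06 in Sir2KD1 and 0.17 in Sir2KD2, and none of these 3 helicase subunits was called in any line. Mcm6 was near 0 in the overexpressing lines (0.03 in Sir2OE1 and -0.05 in Sir2OE2) and at 0.24 in Sir2KD1 and 0.23 in Sir2KD2. Cdc6, a helicase loader, stood at -0.34 in Sir2OE1, 0.02 in Sir2OE2, 0.09 in Sir2KD1 and 0.29 in Sir2KD2. The other loader, Cdt1, was on the minus side throughout, between -0.24 and -0.06, uncalled in each line. Orc1, the largest subunit of the origin recognition complex, lay within -0.15 to 0.08. Over the 10 licensing probes the median line value was -0.04 in Sir2OE1, -0.01 in Sir2OE2, 0.07 in Sir2KD1 and 0.11 in Sir2KD2.

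Genes of the fork and of nucleotide supply included no called probe. Pcna, the sliding clamp, had line values of 0.17 in Sir2OE1, 0.09 in Sir2OE2, 0.16 in Sir2KD1 and 0.26 in Sir2KD2, with limma adjusted p between 0.437 and 0.884. Rrm2, the small subunit of ribonucleotide reductase, had 0.57 in Sir2OE1 (adjusted p = 0.125) and 0.48 in Sir2OE2 (adjusted p = 0.0746), with 0.26 in Sir2KD1 and 0.11 in Sir2KD2. Prim1, a primase subunit, had 0.19 in Sir2OE1, 0.39 in Sir2OE2 (adjusted p = 0.054), 0.01 in Sir2KD1 and 0.38 in Sir2KD2 (adjusted p = 0.0906). Rrm2 and Prim1 came nearest to the threshold in this group without passing it. Tyms, thymidylate synthase, was on the minus side in each line, at -0.39 in Sir2OE1, -0.41 in Sir2OE2, -0.13 in Sir2KD1 and -0.39 in Sir2KD2. Tk1, thymidine kinase, measured -0.23 in Sir2OE1, -0.20 in Sir2OE2, -0.34 in Sir2KD1 and 0.10 in Sir2KD2. The polymerase subunits Pola1 and Pole lay between -0.28 and 0.11, and Rrm1, the large reductase subunit, between -0.02 and 0.13. Over these 8 probes the medians were -0.05 in Sir2OE1, -0.06 in Sir2OE2, 0.09 in Sir2KD1 and 0.11 in Sir2KD2.

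Of the transcription factors, E2f1 had line values of 0.04 in Sir2OE1, -0.19 in Sir2OE2, -0.25 in Sir2KD1 and -0.20 in Sir2KD2. Foxm1 had 0.19 in Sir2OE1, 0.14 in Sir2OE2, -0.04 in Sir2KD1 and -0.02 in Sir2KD2. Mybl2 had 0.31 in Sir2OE1, 0.15 in Sir2OE2, -0.30 in Sir2KD1 and -0.28 in Sir2KD2. None of the 3 was called in any line.

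Among cyclins and their partners, Cdk1 alone was called. Ccna2, cyclin A2, had line values of 0.22 in Sir2OE1, 0.39 in Sir2OE2 (limma adjusted p = 0.0925), -0.15 in Sir2KD1 and 0.03 in Sir2KD2. Ccnb2, a mitotic cyclin, had 0.19 in Sir2OE1, 0.28 in Sir2OE2, -0.13 in Sir2KD1 and -0.10 in Sir2KD2. The cyclins that partner CDK2 at the start of S phase were uncalled as well. Ccne1 measured 0.24 in Sir2OE1, 0.24 in Sir2OE2, -0.22 in Sir2KD1 and -0.02 in Sir2KD2, and Ccne2 lay between -0.08 and 0.40. Cdk2 itself had -0.24 in Sir2OE1, 0.19 in Sir2OE2, 0.45 in Sir2KD1 and 0.38 in Sir2KD2. The CDC25 phosphatases activate these kinases and did not share a side. Cdc25c had 0.21 in Sir2OE1, 0.46 in Sir2OE2 (adjusted p = 0.0669), 0.26 in Sir2KD1 and 0.09 in Sir2KD2, while Cdc25b had -0.58 in Sir2OE1, -0.26 in Sir2OE2, -0.01 in Sir2KD1 and -0.12 in Sir2KD2. Cdc25a was between -0.04 and 0.29. The median of the 9 probes was 0.21 in Sir2OE1 and 0.28 in Sir2OE2, with -0.04 in Sir2KD1 and -0.02 in Sir2KD2.

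**Figure D3:**
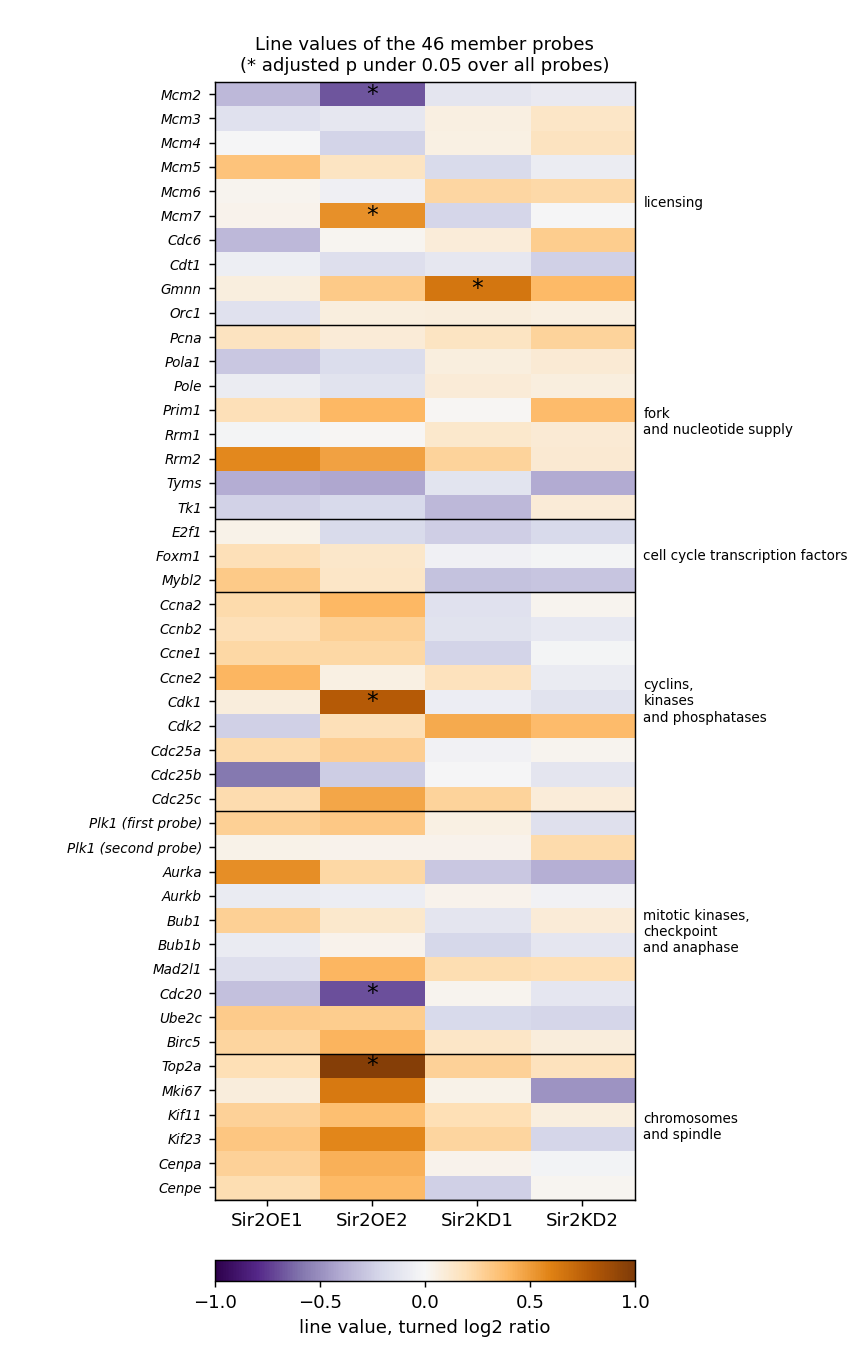
Line value (colour, turned log2 ratio; orange plus, purple minus) of the 46 member probes, down the page by role, in the 4 lines across. Stars mark adjusted p under 0.05 over all probes; 5 fall in Sir2OE2 and 1 in Sir2KD1.

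The mitotic genes called in a single line were Top2a and Cdc20, both in Sir2OE2 and on opposite sides. Over the 16 probes of mitotic kinases, checkpoint, chromosome and spindle genes, the median line value was 0.23 in Sir2OE1 and 0.34 in Sir2OE2, against medians of all probes of -0.0015 and -0.0036. It was 0.03 in Sir2KD1 and -0.03 in Sir2KD2, against 0.024 and -0.0027 over all probes. The probes on the plus side numbered 12 in Sir2OE1, 14 in Sir2OE2, 11 in Sir2KD1 and 7 in Sir2KD2. On single arrays this median lay between 0.16 and 0.33 in Sir2OE1, between 0.28 and 0.37 in Sir2OE2, between 0.02 and 0.08 in Sir2KD1 and between -0.07 and 0.03 in Sir2KD2. The replication members (18 probes) had medians of -0.04 in Sir2OE1, -0.02 in Sir2OE2, 0.07 in Sir2KD1 and 0.11 in Sir2KD2. These medians describe the lists and carry no test.

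**Figure D4:**
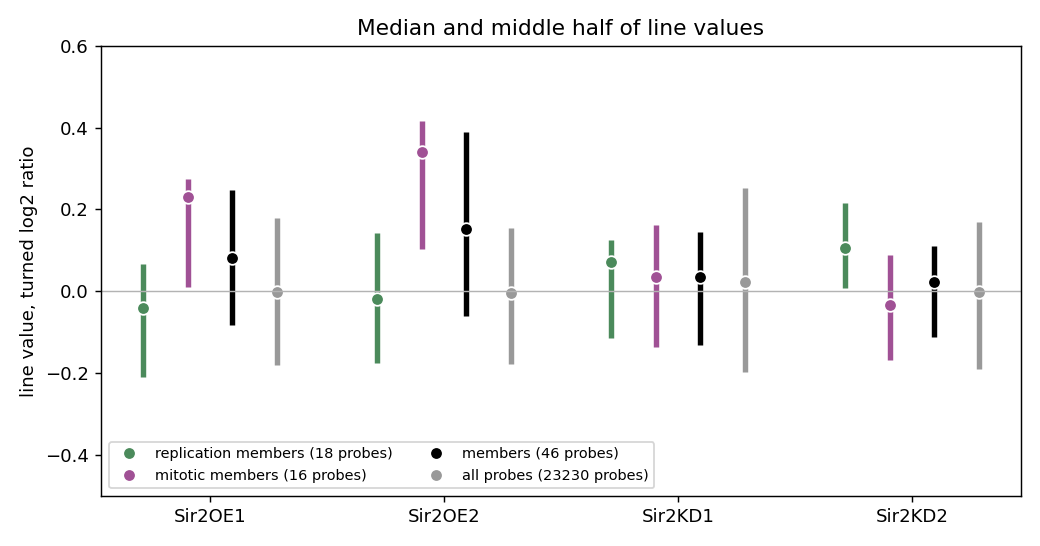
Median (point) and middle 50% (bar) of line values, as turned log2 ratios (vertical axis), in each line for replication members, mitotic members, all members and all probes. The mitotic medians are 0.23 in Sir2OE1 and 0.34 in Sir2OE2, while those of all probes stay within 0.02 of 0 in each line, to 2 decimals.

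All 6 chromosome and spindle probes were on the plus side in Sir2OE1, with a median of 0.24, and all 6 in Sir2OE2, with a median of 0.50. In Sir2KD1 5 of the 6 were plus as well, with a median of 0.12, and in Sir2KD2 3 were, with a median of -0.0049. Besides Top2a, Kif23, a motor of the central spindle, had 0.32 in Sir2OE1, 0.58 in Sir2OE2 (limma adjusted p = 0.0653), 0.25 in Sir2KD1 and -0.22 in Sir2KD2. Cenpa, the centromeric histone, measured 0.27 in Sir2OE1, 0.43 in Sir2OE2 (adjusted p = 0.0953), 0.03 in Sir2KD1 and -0.03 in Sir2KD2. Kif11, which pushes spindle poles apart, had 0.27 in Sir2OE1, 0.36 in Sir2OE2, 0.20 in Sir2KD1 and 0.07 in Sir2KD2, and Cenpe, a kinetochore motor, lay between -0.24 and 0.38. None of these 4 was called.

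Mki67, the proliferation antigen Ki-67 that coats mitotic chromosomes, had the widest range of any member between arrays of 1 line, in Sir2KD2. Its turned log2 ratios were 0.73, 0.43, 0.67 and 0.71 in Sir2OE2 and 0.10, 0.30 and -0.12 in Sir2OE1. In Sir2KD1 it gave -0.28, 0.51 and -0.04, and in Sir2KD2 -1.16, 0.32, -0.09 and -1.0. The Sir2KD2 arrays thus ranged from the lowest Mki67 value of the study to the plus side. Line values were 0.08 ± 0.27 in Sir2OE1, 0.64 ± 0.23 in Sir2OE2, 0.04 ± 0.27 in Sir2KD1 and -0.48 ± 0.23 in Sir2KD2 (SE, n = 3, 4, 3 and 4), with limma adjusted p between 0.249 and 0.982. Each SE pools the scatter of all lines, the wide Sir2KD2 range included, and so is not that of the Sir2OE2 arrays alone.

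Of the remaining mitotic regulators, Birc5, or survivin, of the chromosomal passenger complex, had 0.25 in Sir2OE1, 0.41 in Sir2OE2 (limma adjusted p = 0.0987), 0.15 in Sir2KD1 and 0.08 in Sir2KD2. Mad2l1, which restrains CDC20 at the spindle checkpoint, had -0.16 in Sir2OE1, 0.40 in Sir2OE2, 0.20 in Sir2KD1 and 0.20 in Sir2KD2. The checkpoint kinases Bub1 and Bub1b lay between -0.21 and 0.27, and Aurkb, the passenger kinase, between -0.08 and 0.03. The probes of Plk1, a mitotic kinase, differed: one had 0.28 in Sir2OE1, 0.32 in Sir2OE2, 0.06 in Sir2KD1 and -0.15 in Sir2KD2, and the other 0.04 in Sir2OE1, 0.04 in Sir2OE2, 0.03 in Sir2KD1 and 0.22 in Sir2KD2. No line called any of these probes.

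Overexpression was then set against knockdown, as the mean of the overexpressing lines minus the mean of the knockdown lines. Aurka was the member called, 1 of 46 (2.17%) against 2.66% of all probes, 1.54% on the plus side. Unadjusted p was under 0.05 for 20 members (43.5%), against 14.4% of all probes. Aurka encodes the kinase that matures centrosomes and builds the spindle. Its turned log2 ratios were 0.22, 0.92 and 0.57 in Sir2OE1 and 0.29, 0.36, 0.05 and 0.26 in Sir2OE2, against -0.11, -0.29 and -0.42 in Sir2KD1 and -0.67, -0.24, -0.34 and -0.26 in Sir2KD2. The 7 overexpression arrays were all plus and the 7 knockdown arrays all minus. The difference was 0.72 ± 0.14 (SE; 95% interval 0.40 to 1.04; limma adjusted p = 0.025), with means of 0.40 for overexpression and -0.33 for knockdown. No single line called Aurka, its smallest adjusted p being 0.185, in Sir2OE1. The call of the difference was lost without Sir2OE1 slide 2 or 3, Sir2OE2 slide 1, 2 or 4, Sir2KD1 slide 2 or 3 or Sir2KD2 slide 1. The difference then lay between 0.64 and 0.72, with adjusted p between 0.0534 and 0.0861.

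Ube2c, the ubiquitin-conjugating enzyme of the anaphase-promoting complex, had the same split and was singled out after its values were seen. Its turned log2 ratios were 0.06, 0.49 and 0.37 in Sir2OE1 and 0.53, 0.21, 0.28 and 0.16 in Sir2OE2, against -0.25, -0.16 and -0.18 in Sir2KD1 and -0.25, -0.16, -0.17 and -0.30 in Sir2KD2. Its difference was 0.50 ± 0.12 (SE; limma adjusted p = 0.0509). Aurka and Ube2c were the members, 2 of 46 (4.35%), with every overexpression array plus and every knockdown array minus, a pattern seen in 0.319% of all probes. Larger differences that did not pass the test were those of Mki67 (0.58, adjusted p = 0.329), Cdk1 (0.54, adjusted p = 0.0843) and Mybl2 (0.52, adjusted p = 0.121). Across the 46 member probes, the overexpression and knockdown means had r = 0.06 and rho = 0.04, against r = 0.09 and rho = 0.08 across all probes, as a description over probes measured on the same arrays.

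**Figure D5:**
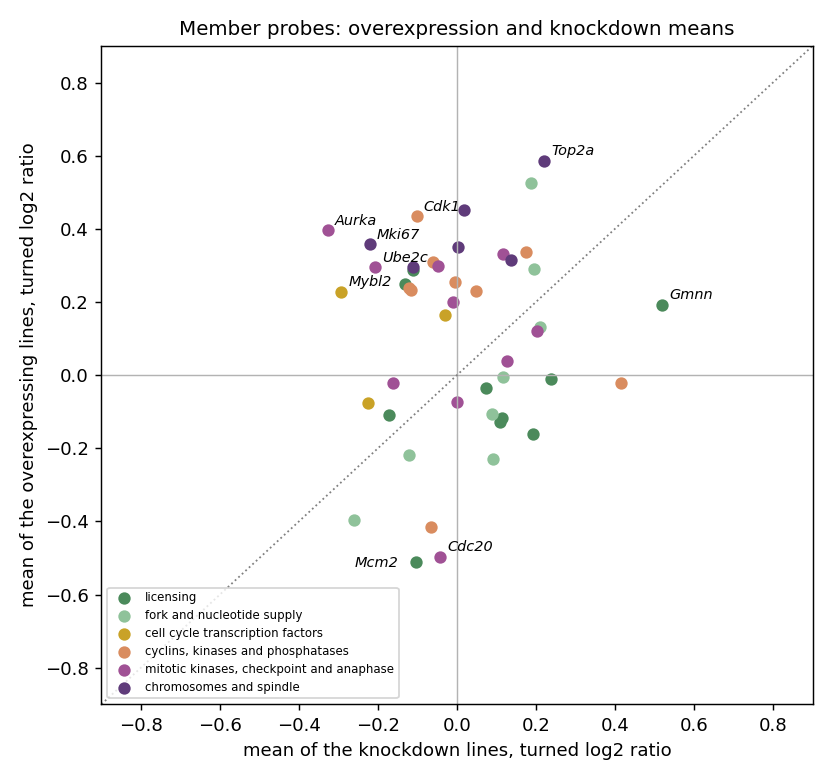
Mean of the overexpressing lines (vertical axis) against the mean of the knockdown lines (horizontal axis), both as turned log2 ratios, for each member probe, coloured by role; the dotted line marks equal values. Aurka lies at 0.40 for overexpression and -0.33 for knockdown, Gmnn at 0.19 and 0.52.

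How large an unseen difference could be, given the spread between slides alone, is shown by the 95% intervals. They carry no spread between cultures, lines or controls. The whole interval lay within 1 on the log2 scale of 0, a 2-fold change, for 45 of the 46 member probes in Sir2OE1, 42 in Sir2OE2, 46 in Sir2KD1 and 46 in Sir2KD2. Over all probes this held for 73.4%, 80.3%, 66.2% and 77.9% of probes in the same lines. The median SE of a member's line value was 0.16 in Sir2OE1 and Sir2KD1 and 0.13 in Sir2OE2 and Sir2KD2. Lines with the same number of arrays match here because the spread of a probe is shared by all lines. Over all probes it was larger, at 0.22 and 0.19 in the same pairs of lines.

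The wider machinery was read from lists of other genes. Of 44 further replication genes listed, 43 had probes (49 in all), and those called in a single line were all plus. Gins3, part of the GINS helicase cofactor, had 0.54 in Sir2OE2 (limma adjusted p = 0.0278) and 0.90 in Sir2KD1 (adjusted p = 0.00407). In Sir2KD1, Hells, a chromatin remodeller, had 0.96 (adjusted p = 0.0237) and Pole4, a polymerase epsilon subunit, 0.67 (adjusted p = 0.0221), while their other probes, at 0.07 and 0.32, were not called. Rpa3, of the single-strand binding protein RPA, was called in Sir2KD2 at 0.79 (adjusted p = 0.00807). The 49 probes thus held 0 calls in Sir2OE1, 1 in Sir2OE2, 3 in Sir2KD1 and 1 in Sir2KD2, where 1.06%, 2.81%, 3.59% and 1.34% of all probes were called, so these counts are near the background. The list medians were -0.01 in Sir2OE1, 0.03 in Sir2OE2, 0.12 in Sir2KD1 and 0.14 in Sir2KD2. In overexpression minus knockdown, Rpa3 (-0.70, adjusted p = 0.0151) and Chaf1b (-0.58, adjusted p = 0.0258), a subunit of the chromatin assembly factor CAF-1, were called on the minus side, against 2.66% of all probes; Chaf1b was named after its values were seen.

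Of 58 further mitotic genes listed, 50 had probes (57 in all). On the plus side were 39 probes in Sir2OE1 (median 0.11), 49 in Sir2OE2 (median 0.26), 42 in Sir2KD1 (median 0.10) and 30 in Sir2KD2 (median 0.02). Called were 2 probes in Sir2OE1, 3 in Sir2OE2, 2 in Sir2KD1 and 0 in Sir2KD2, where 1.06%, 2.81%, 3.59% and 1.34% of all probes were called. Called in Sir2OE2 were Pttg1, or securin, at 0.52 (limma adjusted p = 0.0186), Ndc80, of the outer kinetochore, at 0.53 (adjusted p = 0.0169) and Cdca3 at 0.49 (adjusted p = 0.018). In Sir2OE1, Tpx2, an activator of Aurora A, was called at 0.62 (adjusted p = 0.0385) and Pttg1 on the other side at -0.83 (adjusted p = 0.00786). Pttg1 was also the 1 probe of this list called in Sir2OE1 minus Sir2OE2, at -1.35, against 0.323% of all probes. Sir2KD1 called Anln, a cytokinesis protein, at 0.82 (adjusted p = 0.0296), with its other probe at 0.38 and not called, and Cks2, a CDK-binding protein, at 0.56 (adjusted p = 0.0409). In overexpression minus knockdown, Tpx2 was called at 0.56 (adjusted p = 0.025), against 2.66% of all probes. Of 12 anaphase-promoting complex genes listed, 9 had probes (10 in all). Among these Anapc13 was called, in Sir2OE1 at 0.63 (adjusted p = 0.0499), against 1.06% of all probes.

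Upstream of the cycle, the list of D cyclins, pocket proteins, inhibitors and other E2F and DREAM subunits (28 genes listed, 24 with probes, 25 probes) held larger values. Called were 2 probes in Sir2OE1, 2 in Sir2OE2, 4 in Sir2KD1 and 3 in Sir2KD2, against 1.06%, 2.81%, 3.59% and 1.34% of all probes. Ccnd2, cyclin D2, which with CDK4 drives beta-cell proliferation, was called on the minus side in all 4 lines by both its probes, one of which had -0.94 in Sir2OE1, -0.81 in Sir2OE2, -1.51 in Sir2KD1 and -0.79 in Sir2KD2. Rbl2, the pocket protein p130 of the DREAM repressor, had -2.57 in Sir2KD1 and -2.60 in Sir2KD2 (limma adjusted p = 2.86e-05 and 1.11e-05), against uncalled values of -0.19 in Sir2OE1 and -0.22 in Sir2OE2. E2f4, the E2F of that repressor, had -1.01 in Sir2KD1 (adjusted p = 0.00673), against uncalled values of -0.12 in Sir2OE1, -0.41 in Sir2OE2 and -0.13 in Sir2KD2. Rbl2 was also the 1 probe of this list called in overexpression minus knockdown, at 2.38 (adjusted p = 3.76e-05), against 2.66% of all probes. The replication and mitosis members had medians of 0.03 in Sir2KD1 and 0.02 in Sir2KD2. A link between these medians and Rbl2 or E2f4 was not tested.

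Genes of the array whose 14 values went most nearly with the mean of the member probes were Lix1 (r = 0.923), Rny3 (0.916), Aopep (0.916), Sema3c (0.912) and Fv1 (0.903), among 16837 singly named probes. All 5 were called in Sir2OE2, at 1.04 to 1.97. The mean of the member probes was itself highest on the Sir2OE2 arrays, at 0.12 to 0.19. Genes picked for following it thus tend to be high there through the selection, and their calls are no separate result. Among the members, Cdk1 went most nearly with the mean of the others (r = 0.81), and Cdc20 (r = -0.81) and Mcm2 (r = -0.78) ran against it. These correlations describe 14 arrays that share controls within each kind.

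Some markers of cell identity were called in the same arrays, where 1.06% of all probes were called in Sir2OE1, 2.81% in Sir2OE2, 3.59% in Sir2KD1 and 1.34% in Sir2KD2. Of 10 beta-cell genes listed, 7 had probes (8 in all), and these did not share a side. On the plus side were 3 in Sir2OE1, 2 in Sir2OE2, 4 in Sir2KD1 and 4 in Sir2KD2. Slc2a2, the GLUT2 glucose transporter, was called on the minus side in every line (-0.90 in Sir2OE1, -1.50 in Sir2OE2, -2.08 in Sir2KD1 and -0.89 in Sir2KD2). Pdx1 was called in Sir2KD1 (-0.77), and 1 of 2 probes of Ucn3 in Sir2KD1 (2.86) and Sir2KD2 (2.62). The probes of this gene disagree, since the uncalled one was minus in both knockdown lines, with -0.95 for Sir2KD1 and -0.40 for Sir2KD2. Of 6 exocrine and duct probes, Krt19 was called in Sir2OE1 (-0.58) and Sir2OE2 (-0.69), and Krt7 in Sir2KD1 (0.93) and Sir2KD2 (1.29). On the plus side were 1 of these 6 in Sir2OE1, 5 in Sir2OE2, 6 in Sir2KD1 and 3 in Sir2KD2. No probe was called in any line by limma for other islet cells (6 probes), fibroblasts (9) or immune cells (6). Their part in the values of the replication and mitosis genes was not tested.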

How the data were processed

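RNA of 4 MIN6 lines was measured on 14 2-colour arrays, each against its control. The deposited values were log2 ratios, per the file header and its values, and the authors centred them: within each kind of perturbation, values of complete probes summed to 0 over 6 of 7 arrays (largest deviation 5.6e-08), leaving out Sir2OE1 slide 2 and Sir2KD1 slide 2. Not given in the sources used here were the scanner software, the background correction, the normalization and the channel on top. Intensities were not used here, and precision is limited by how many arrays there were.

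Deposited values of a line's arrays with opposite channels had a mean correlation of -0.281 (12 pairs), and those with the same channels 0.125 (6 pairs). Centring itself lowers such correlations, so the turn of arrays with the line in channel 1 is an assumption. In each kind the 6 summed arrays held the line in channel 2 on 3 and in channel 1 on 3. If the ratios had instead been deposited as line over control, the centring would have removed the mean line effect over these 6 arrays. They came from both lines of a kind, so a difference between the lines would have remained.

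Of 23232 probes, 16885 had 1 symbol, 143 several and 6204 were not listed, and 16205 were matched through Entrez identifiers. A single limma 3.58.1 model (R 4.3.3; lmFit, eBayes) held 1 coefficient for each line and 1 channel term for each kind, and took probes measured on 2 or more arrays of each line. Benjamini-Hochberg adjustment ran over 23230 probes, with a threshold of 0.05. The procedure was tested on simulated data. Members and lists were chosen with earlier results of these data known. Named are members called in a line or in a difference, 8 preset genes (Ccnb1 among them, without a probe), the called probes of each list and the 5 most similar genes; other members are named to account for all. Residuals of same-numbered slides had a mean correlation of -0.0659, with 1 of 19 pairs over 0.1. Within a kind, these correlations were minus for slides of different lines with the same channels and plus for opposite channels. They therefore cannot show whether slides with the same number were paired. The 26 alternatives covered the channel terms, the turn, scaling, filters, probe averaging, moderation, weights, threshold, a replicate block and omission of each array.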

Additional observations from a re-analysis of the deposited data

Results flagged for a closer look

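On the Sir2OE2 arrays, Mcm2 had a turned log2 ratio of -0.85 on slide 2, apart from -0.63 to -0.60 on the others. The gap to the nearest array was 0.863 of the range, over Dixon's 95% critical value for 4 arrays. Of 20 groups of 4 arrays tested in this way, chance would pick out about 1 in 20. Without that slide the Sir2OE2 line value of Mcm2 was -0.59 (limma adjusted p = 0.0708).

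For Aurka, overexpression and knockdown differed by 0.72 on the log2 scale (means 0.40 and -0.33) in a test of the difference itself (limma adjusted p = 0.025), with 7 of 7 overexpression arrays plus and 7 of 7 knockdown arrays minus. This holds only if both kinds of array have the same channel on top.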

How the results depend on the processing

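Across 26 alternatives, 14 of which left out 1 array, the called values kept their side unless the values were taken as line over control already. Under that reading Sir2OE2, Sir2KD1 and overexpression minus knockdown each had 0 members called. The values turned to -0.031 for Mcm7 and -0.15 for Top2a in Sir2OE2 and to -0.26 for Gmnn in Sir2KD1. Over all probes it called 15 in Sir2KD1 and 0 in each other line. The centring would by construction have removed the mean line effect of a kind, though not a difference between its lines. In Sir2OE2 the main fit called 5 members (3 plus, 2 minus), against 2.81% of all probes. There were 11 with 1 channel term and 14 with no channel term, against 4.02% and 5.12% of all probes. Arrays centred and scaled gave 11 (9 plus, 2 minus), against 4.39%. Array weights gave 17, against 10%, and a threshold of 0.10 gave 12, against 4.22%. Slide number as a replicate block left 2 (Cdk1 and Mcm2), against 1.84%. The share of all probes called thus changed with the setting as well. The replicate block left 0 in Sir2KD1 (Gmnn adjusted p = 0.185), against 0.775% of all probes, and 0 for overexpression minus knockdown (Aurka adjusted p = 0.111). That difference had 4 members called with 1 channel term, 7 with no channel term, 2 with arrays centred, with probes averaged or with array weights, and 4 at 0.10. For this difference the share of all probes was counted in the main fit only, at 2.66%. Its counts under the alternatives therefore have no background to be read against. Sir2KD2 had 2 called with 1 channel term, with no channel term or at 0.10, and both knockdown lines then shared 1. Over all probes 2.33%, 3.49% and 2.48% were called in Sir2KD2 under these settings. The share called on the same side in both knockdown lines was counted in the main fit only, at 0.659% of all probes. Sir2OE1 had 2 with no channel term and 1 with array weights, and both overexpressing lines then shared 1. Over all probes 2.7% and 1.08% were called in Sir2OE1 under these settings. For both overexpressing lines on the same side, the share was 0.551% in the main fit and was not counted under the alternatives. Leaving out 1 array gave 0 to 6 members in Sir2OE2, 0 to 1 in Sir2KD1 and 0 to 2 for overexpression minus knockdown. The share of all probes called then ran from 1.36% to 2.91% in Sir2OE2 and from 2.25% to 3.59% in Sir2KD1. It was not counted for overexpression minus knockdown. The causes were not tested. Counts for the tested differences within a kind and with the line as the replicate stayed at 0 under the alternatives run.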
